A study of Mus musculus with 14 samples.

Results

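The maps of an active and a heterochromatin histone mark were set side by side in E14 mouse embryonic stem cells that had received vehicle. The members are the regions of the vehicle H3K27ac peak list and of the vehicle H3K9me3 peak list, each region being 1 unique interval of chromosome, start and end. The H3K27ac list held 82177 regions and the H3K9me3 list 60836, together 143013 of the 351659 regions in the 7 lists of the series. H3K27ac chromatin came from E14 cells labelled as passage 20 to 36 or 37, and H3K9me3 chromatin from E14 cells labelled as passage 20 to 40 or 41. All were grown on gelatin in 2i+LIF medium, which holds mouse embryonic stem cells in a naive pluripotent state. Both groups received DMSO for 6 h, spent another 6 h in fresh medium and were harvested at 12 h, so that they are the controls of a study of doxorubicin, a drug that breaks DNA. Each list was called by the authors on 2 pooled libraries, and neither has a replicate check. Percentages carry 95% Wilson intervals, which cover counting error only.

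Acetylation of lysine 27 of histone H3 is laid down by the p300 and CBP acetyltransferases at active promoters and enhancers and is removed by histone deacetylases. Trimethylation of lysine 9 of histone H3 is laid down by Setdb1 and the Suv39h enzymes and bound by the HP1 proteins. In mouse embryonic stem cells, Setdb1 is brought by Trim28 and KRAB zinc finger proteins to endogenous retroviruses, and Suv39h enzymes act at pericentromeric satellite repeats.

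Promoters of genes with 1 mark or both are given first, most of them picked after their values were seen. In the first 4, H3K27ac lay over the window and H3K9me3 did not. Dido1, a gene with a role in embryonic stem cell differentiation, Sirt4, a mitochondrial sirtuin, and the pluripotency regulators Sox2 and Nanog are shown. In the next 4, H3K9me3 lay over the window and H3K27ac did not. Zfp872, a zinc finger gene, Ogfod2, a putative dioxygenase, and Gm52432 had the highest H3K9me3 at a gene end among such genes outside the regions of the input list, and Gm32719 had a higher value within an input region. Ogfod2 also had H3K27ac of 1.16 FPM at a gene end, outside the window shown, beside H3K9me3 of 5.63 FPM. The last pair, Zfp534 and Zfp985, are zinc finger genes of 1 cluster on chromosome 4 with H3K27ac at the 5′ end and H3K9me3 at the 3′ end, and the H3K27ac region of Zfp534 and both regions of Zfp985 overlapped the input list. Each sequence is a RefSeq promoter window from GRCm38.p6 (mm10), taking 250 bases before and 50 after the listed start, and capitals mark CG dinucleotides.
Dido1: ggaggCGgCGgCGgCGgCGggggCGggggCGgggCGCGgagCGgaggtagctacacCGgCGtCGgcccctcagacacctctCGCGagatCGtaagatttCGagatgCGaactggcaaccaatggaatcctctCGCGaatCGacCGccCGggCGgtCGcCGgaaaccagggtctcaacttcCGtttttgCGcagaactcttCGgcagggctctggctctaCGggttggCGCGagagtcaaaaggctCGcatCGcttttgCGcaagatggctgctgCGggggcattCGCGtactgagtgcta
Sirt4: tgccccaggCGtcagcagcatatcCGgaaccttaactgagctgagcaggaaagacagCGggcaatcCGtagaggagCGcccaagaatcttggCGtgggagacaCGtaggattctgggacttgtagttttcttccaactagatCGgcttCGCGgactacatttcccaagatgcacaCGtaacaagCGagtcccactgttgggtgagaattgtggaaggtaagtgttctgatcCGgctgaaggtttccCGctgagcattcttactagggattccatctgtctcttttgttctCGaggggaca
Sox2: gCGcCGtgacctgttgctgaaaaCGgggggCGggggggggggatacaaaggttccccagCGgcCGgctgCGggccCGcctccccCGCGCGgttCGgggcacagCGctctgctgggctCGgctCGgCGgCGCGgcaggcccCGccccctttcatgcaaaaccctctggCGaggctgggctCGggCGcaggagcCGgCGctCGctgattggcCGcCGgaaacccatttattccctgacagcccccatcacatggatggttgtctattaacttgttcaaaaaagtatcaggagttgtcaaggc
Nanog: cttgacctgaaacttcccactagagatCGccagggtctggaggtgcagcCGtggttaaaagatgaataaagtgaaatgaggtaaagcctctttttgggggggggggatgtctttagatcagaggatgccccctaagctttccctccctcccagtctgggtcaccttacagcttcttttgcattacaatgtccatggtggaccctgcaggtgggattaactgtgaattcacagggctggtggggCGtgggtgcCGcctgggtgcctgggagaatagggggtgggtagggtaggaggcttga
Zfp872: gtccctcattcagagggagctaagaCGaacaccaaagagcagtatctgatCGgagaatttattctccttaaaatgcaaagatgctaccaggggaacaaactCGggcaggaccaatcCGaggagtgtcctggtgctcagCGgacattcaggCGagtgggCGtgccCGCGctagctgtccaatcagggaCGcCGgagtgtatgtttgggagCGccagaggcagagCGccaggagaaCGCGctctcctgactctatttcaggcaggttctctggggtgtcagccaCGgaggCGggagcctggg
Ogfod2: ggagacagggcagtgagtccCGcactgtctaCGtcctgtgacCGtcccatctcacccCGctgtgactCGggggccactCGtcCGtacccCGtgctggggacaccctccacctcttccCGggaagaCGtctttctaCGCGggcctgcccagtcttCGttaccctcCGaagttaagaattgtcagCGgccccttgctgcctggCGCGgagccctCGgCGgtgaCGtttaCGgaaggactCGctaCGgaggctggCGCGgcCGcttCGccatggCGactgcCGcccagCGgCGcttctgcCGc
Gm52432: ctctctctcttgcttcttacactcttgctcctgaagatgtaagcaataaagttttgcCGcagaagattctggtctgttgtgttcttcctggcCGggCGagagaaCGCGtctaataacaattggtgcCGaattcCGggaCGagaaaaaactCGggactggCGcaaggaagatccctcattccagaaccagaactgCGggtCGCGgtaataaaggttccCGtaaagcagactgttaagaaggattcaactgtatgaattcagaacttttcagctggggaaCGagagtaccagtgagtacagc
Gm32719: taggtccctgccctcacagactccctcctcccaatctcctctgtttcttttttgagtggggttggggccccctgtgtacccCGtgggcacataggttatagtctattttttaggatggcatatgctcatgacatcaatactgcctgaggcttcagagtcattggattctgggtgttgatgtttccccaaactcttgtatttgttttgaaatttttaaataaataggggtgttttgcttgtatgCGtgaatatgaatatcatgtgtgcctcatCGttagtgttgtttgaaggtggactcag
Zfp534: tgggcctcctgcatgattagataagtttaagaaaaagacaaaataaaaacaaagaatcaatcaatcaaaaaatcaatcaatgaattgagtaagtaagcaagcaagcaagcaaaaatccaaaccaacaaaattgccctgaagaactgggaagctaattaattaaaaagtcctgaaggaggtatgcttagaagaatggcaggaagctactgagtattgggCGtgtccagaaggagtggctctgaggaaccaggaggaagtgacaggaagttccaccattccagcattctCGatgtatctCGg
Zfp985: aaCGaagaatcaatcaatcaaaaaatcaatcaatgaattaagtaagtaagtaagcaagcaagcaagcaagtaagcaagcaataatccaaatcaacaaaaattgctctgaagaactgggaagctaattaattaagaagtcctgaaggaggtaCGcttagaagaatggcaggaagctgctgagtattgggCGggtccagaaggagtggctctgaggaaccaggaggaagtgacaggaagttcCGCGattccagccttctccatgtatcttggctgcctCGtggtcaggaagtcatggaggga

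These windows lie at chr2:180709950-180710249 (minus strand), chr5:115484248-115484547 (minus), chr3:34649745-34650044 (plus), chr6:122707239-122707538 (plus), chr9:22187916-22188215 (plus), chr5:124112071-124112370 (plus), chrX:65707145-65707444 (plus), chr12:20240489-20240788 (plus), chr4:147702582-147702881 (minus) and chr4:147553027-147553326 (plus). They hold 38 CG dinucleotides at Dido1, 15 at Sirt4, 27 at Sox2 and 4 at Nanog, against 17 at Zfp872, 32 at Ogfod2, 15 at Gm52432 and 3 at Gm32719. Single windows of either mark could therefore be rich or poor in CG, and Nanog was acetylated with few. The Zfp534 and Zfp985 windows hold 3 and 6, share a run of 50 identical bases, and the Zfp985 window carried H3K9me3 as well as H3K27ac. Sirt4's window overlapped an H3K27ac region other than its highest one, whose summit lay 5831 bp away. By pileup alone the 3 highest protein-coding genes with H3K27ac and no H3K9me3 were Sirt4, Dido1 and Eps15l1, with Klf2 level with Eps15l1 through the same region, and the 3 highest with H3K9me3 and no H3K27ac were Tcstv3, Gm32719 and Tmem267. The marks of Eps15l1 and Tmem267 lay at the far end of the gene, 86516 bp and 121852 bp from the nearest listed start, so their windows are not shown.

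After duplicate removal the H3K27ac list rested on 20647895 fragments and the H3K9me3 list on 15992125, and redundant fragments made up a proportion of 0.02 for H3K27ac and 0.14 for H3K9me3. Pileups, the number of fragments stacked over a summit, were therefore divided by the fragments of the list and are given in FPM, fragments per 1000000 fragments of the list. The lowest pileup called was 9 fragments (0.436 FPM) for H3K27ac and 8 fragments (0.500 FPM) for H3K9me3. Of the H3K27ac regions 1.59% overlapped a region of the input list, and of the H3K9me3 regions 2.28%. That input came from doxorubicin-treated cells. It marks places where chromatin without immunoprecipitation also gave peaks.

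As a check of the cell type, 28 of 30 pluripotency genes had H3K27ac at a gene end and 1 of 30 had H3K9me3, where 52.3% of all protein-coding genes had H3K27ac and 5.87% had H3K9me3. Of 15 fibroblast markers, 2 had H3K27ac, Pdgfrb at 0.969 and Col1a1 at 0.533 FPM, and 1 had H3K9me3, Lum at 0.688. Of 26 regulators of differentiated lineages, 9 had H3K27ac and 0 had H3K9me3. All H3K27ac values in the fibroblast and lineage lists stayed at or below 1.40 FPM, the value at Sox1.

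In the full lists the regions of both marks were of like length, while at stricter thresholds those of H3K27ac were longer, as given below. The 5th percentiles, 285 bp for H3K27ac and 266 bp for H3K9me3, lay close to the fragment sizes of 264 and 244 bp. The median was 634 bp for H3K27ac (quartiles 399 and 1171 bp) and 640 bp for H3K9me3 (quartiles 386 and 1213 bp). The lists differed more in their long tail. Regions over 2000 bp made up 11.6% of H3K27ac and 13.5% of H3K9me3 regions, and held 42.0% of the H3K27ac bases and 48.6% of the H3K9me3 bases. Those over 5000 bp made up 2.19% of H3K27ac and 3.39% of H3K9me3 regions. In all, H3K27ac covered 88.4 Mb and H3K9me3 70.8 Mb.

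The depth-scaled pileup was lower for H3K27ac, with a median of 0.726 FPM (quartiles 0.581 and 1.11), than for H3K9me3, with a median of 0.938 (quartiles 0.688 and 1.38). At least 1 FPM was reached by 30.5% of H3K27ac and by 46.7% of H3K9me3 regions. The order turned at the upper end, where 1133 H3K27ac regions (1.38%) and 529 H3K9me3 regions (0.870%) reached 5 FPM. Within each list longer regions were higher, with a Spearman coefficient between length and pileup of 0.687 over 82177 H3K27ac regions and 0.720 over 60836 H3K9me3 regions. The order of the medians depended on where a list was cut. Among regions with at least 1 FPM the median pileup was 1.55 for H3K27ac and 1.44 for H3K9me3, and the median length was 1461 bp for H3K27ac and 1207 bp for H3K9me3.

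**Figure D1:**
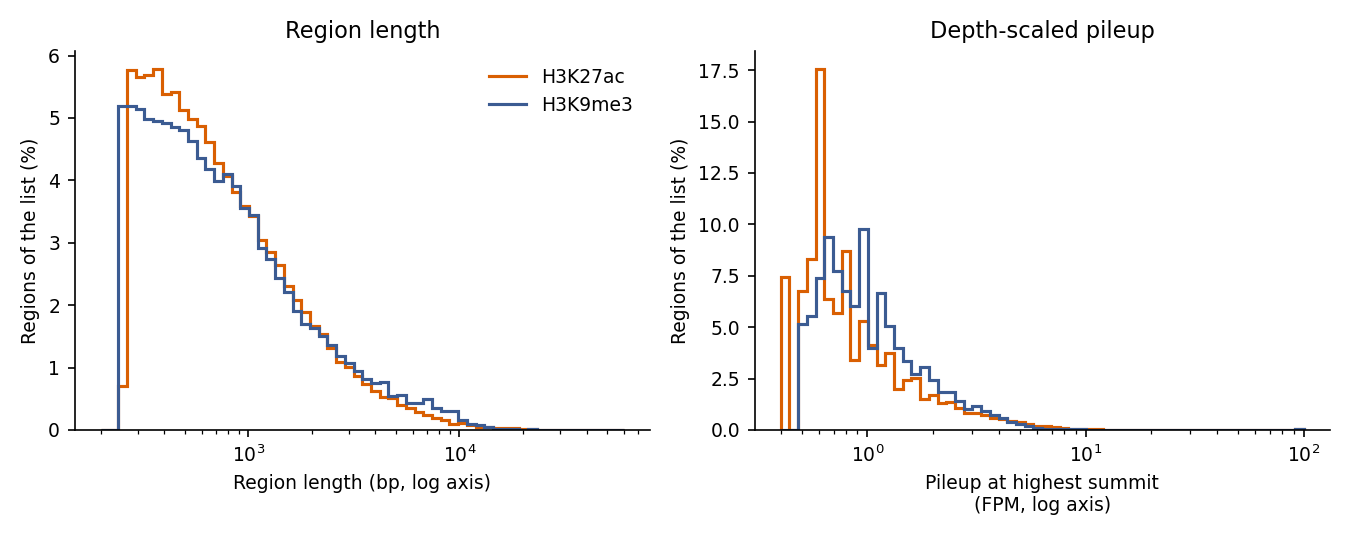
Distribution of region length (left, bp on a log axis) and of pileup at the highest summit (right, FPM on a log axis) in the vehicle H3K27ac and H3K9me3 lists, as the percentage of each list per bin, with values beyond the axis counted in the end bins. Length distributions lie nearly on each other, with medians of 634 bp for H3K27ac and 640 bp for H3K9me3, while the H3K27ac pileups start and centre lower than those of H3K9me3.

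The longest H3K27ac region on a chromosome covered 38981 bp within Esrrb, an orphan nuclear receptor of the naive pluripotency network, with a pileup of 8.72 FPM and no H3K9me3. Within 1000 bp of the ends of Esrrb the highest value was 0.872 FPM, so the gene's acetylation lay inside it. The third covered 36636 bp in Usp7, a deubiquitinase, at 4.26 FPM. The fourth covered 31757 bp beside Cd9, a tetraspanin of the stem cell surface, at 13.6 FPM, and the fifth 28273 bp in Mllt6, a chromatin reader, at 5.04 FPM. H3K9me3 covered 27.5% of the Cd9 region and none of the Usp7 and Mllt6 regions.

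The longest H3K9me3 region covered 55446 bp on chromosome 10 from 83403801 to 83459246, with a pileup of 4.00 FPM and no H3K27ac, and its nearest gene, the unstudied Gm8270, lay 18827 bp away. The other long H3K9me3 regions overlapped the input list. They covered 34596 bp at 9630028I04Rik on chromosome 17, 34371 bp at Mid1-ps1 on the Y chromosome and 26074 bp at Mid1, a ubiquitin ligase gene that spans the pseudoautosomal boundary in mice, on the X chromosome. H3K27ac covered 94.1% of the Mid1 region and 77.4% of the Mid1-ps1 region. A region on chromosome 9 from about 2999984 to 3038323 was the second longest of both lists, at 350.2 FPM for H3K27ac and 1631 FPM for H3K9me3, and lay in the input list too.

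The very highest pileups of both marks largely sat on input regions. Of the 100 highest H3K27ac regions 54 overlapped the input list, and of the 100 highest H3K9me3 regions 87 did. Of the same regions, 60 of H3K27ac and 88 of H3K9me3 carried the other mark. With input regions set aside, the numbers among the 100 highest were 23 for H3K27ac and 10 for H3K9me3. The part of the input regions in the high pileups was not tested.

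A minority of the regions of each mark overlapped the other mark. Of the H3K27ac regions 8.95% (8.75% to 9.14%; 7351 regions) overlapped H3K9me3, and of the H3K9me3 regions 12.1% (11.9% to 12.4%; 7375 regions) overlapped H3K27ac. The shared 5.11 Mb made up 5.78% of the H3K27ac and 7.22% of the H3K9me3 bases. H3K9me3 as a whole covered 2.58% of the chromosomes and H3K27ac 3.24%, so each mark was found over the other above its share of all bases. Input regions made up 13.9% of the overlapping regions of either list, against 0.377% of the other H3K27ac and 0.670% of the other H3K9me3 regions. With input regions set aside the overlap was 7.76% of H3K27ac and 10.6% of H3K9me3 regions. The median distance to the nearest summit of the other mark was 22504 bp from an H3K27ac summit and 24660 bp from an H3K9me3 summit.

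Across autosomes H3K27ac density varied widely and in step with gene density, and H3K9me3 density varied less. H3K27ac ranged from 20.8 regions per Mb on chromosome 3 to 54.1 on chromosome 11, with a median of 34.1. H3K9me3 ranged from 16.6 on chromosome 19 to 27.8 on chromosome 13, with a median of 23.7. Over the 19 autosomes the Spearman coefficient with protein-coding genes per Mb was 0.82 for H3K27ac and -0.16 for H3K9me3, and between the marks 0.05. These are descriptions over chromosomes that share a library and a genome. The ratio of H3K27ac to H3K9me3 regions was highest on chromosome 11 at 3.10 and lowest among autosomes on chromosome 3 at 0.889, the only autosome with more H3K9me3 regions.

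The X chromosome stood below every autosome in H3K27ac, with 7.49 regions per Mb, and within the autosomal range in H3K9me3, with 19.2. The ratio of 0.390 was under that of chromosome 3. Its called H3K27ac regions had a median pileup of 0.969 FPM against 0.726 to 0.775 on autosomes, and its H3K9me3 regions had 0.813 FPM against 0.875 to 0.938. These medians leave out regions too weak to be called. H3K27ac regions of at least 1 FPM numbered 3.69 per Mb on X, against 6.69 on chromosome 3, the lowest autosome. Among protein-coding genes 25.2% on X carried H3K27ac only, against 50.9% on autosomes. After doxorubicin the X chromosome was again low, with 7.39 H3K27ac regions per Mb against 25.9 to 74.7 on autosomes. E14 is a male line and carries a single X chromosome, and the part of copy number in these values was not tested. The Y chromosome had 0.682 H3K27ac and 2.65 H3K9me3 regions per Mb.

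In windows of 1 Mb the marks spread very differently. Of 2732 windows, 1181 had more H3K27ac regions, 1430 (52.3%, 50.5% to 54.2%) more H3K9me3 regions and 121 the same number. Of these 121, 85 held no region of either mark, 57 of them on autosomes. Such empty windows are counted in the shares and medians. On autosomes alone the share with more H3K9me3 was 50.4%, on X 74.9%, and in windows of 2 Mb 49.3%. By number of regions in the full lists, neither mark thus led in a clear majority of autosomal windows. Over all windows the share was 57.4% by covered bases, 58.8% with equal numbers of top regions and 58.9% at a pileup of at least 1 FPM. The median window held 14 H3K27ac regions (quartiles 4 and 44) and 18 H3K9me3 regions (quartiles 11 and 28), although the H3K27ac list is longer. The variance over windows was 42.9 times the mean for H3K27ac and 15.0 times the mean for H3K9me3. A window without H3K27ac but with H3K9me3 was found 91 times, and the reverse 2 times. Where an autosomal window held 0 protein-coding genes, the medians were 2 H3K27ac and 17 H3K9me3 regions, and H3K9me3 regions were more numerous in 83.5% of such windows. With over 20 genes the medians were 76 H3K27ac and 20 H3K9me3 regions, and H3K9me3 was ahead in 20.8%. H3K27ac thus climbed with the number of genes while H3K9me3 stayed between 17 and 21 in every class.

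**Figure D2:**
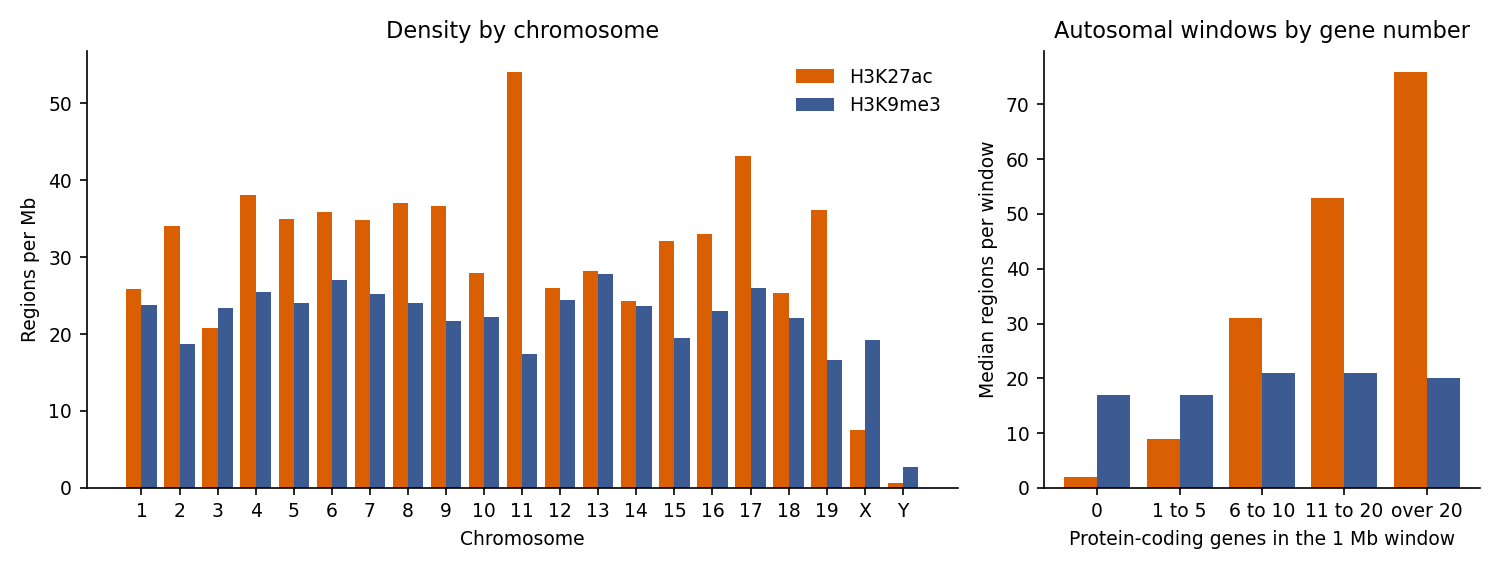
Left, regions per Mb of each chromosome in the vehicle H3K27ac and H3K9me3 lists. Right, median number of regions per 1 Mb autosomal window by the number of protein-coding genes in it. H3K27ac reached 54.1 per Mb on chromosome 11 and climbed with gene number, while H3K9me3 stayed between 16.6 and 27.8 per Mb on autosomes and between 17 and 21 per window.

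The windows richest in H3K27ac are given first. Apart from a window on chromosome 8 at 20 Mb with 213 H3K27ac, 218 H3K9me3 and 254 input regions, the richest H3K27ac windows held no input region. They lay on chromosome 11 at 117 Mb with 206 H3K27ac and 25 H3K9me3 regions, on chromosome 11 at 88 Mb with 199 H3K27ac and 14 H3K9me3 regions, on chromosome 2 at 30 Mb with 198 H3K27ac and 13 H3K9me3 regions, and on chromosome 17 at 28 Mb with 191 H3K27ac and 15 H3K9me3 regions. The chromosome 11 windows hold the splicing factor gene Srsf1, the RNA-binding protein gene Msi2, Socs3, a feedback inhibitor of LIF signalling, and Birc5, the mitotic survivin gene. The chromosome 2 window holds 30 protein-coding genes, among them Set, Nup188 and Usp20.

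The window richest in H3K9me3, on chromosome 4 at 147 Mb, had 173 H3K27ac, 254 H3K9me3 and 126 input regions, and 9 of its 16 protein-coding genes are Zfp genes. The next was the chromosome 8 window at 20 Mb with its 213 H3K27ac and 218 H3K9me3 regions. Neighbouring windows on chromosome 12 at 18, 19 and 20 Mb had 24, 35 and 50 H3K27ac regions, with 150, 164 and 169 H3K9me3 regions and 0, 1 and 17 input regions, around Zfp996 and unnamed gene models. Without an input region, the next were chromosome 7 at 11 Mb with 4 H3K27ac and 124 H3K9me3 regions, which holds Zscan4c, Zscan4d and Zscan4f with Vmn1r vomeronasal receptors, and chromosome 2 at 177 Mb with 77 H3K27ac and 123 H3K9me3 regions, which holds Zfp970 and Zfp972. Chromosome 7 at 42 Mb had 34 H3K27ac and 113 H3K9me3 regions over Zfp and Vmn2r genes, and chromosome 5 at 109 Mb had 21 H3K27ac and 108 H3K9me3 regions over Vmn2r genes.

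Most H3K27ac summits lay at or in genes and most H3K9me3 summits outside them. A gene end of any class was within 1000 bp of 19.8% of H3K27ac summits (19.5% to 20.1%) and of 4.67% of H3K9me3 summits (4.50% to 4.84%), where 5.68% of all bases lie. Inside genes lay 51.5% of H3K27ac and 30.4% of H3K9me3 summits, against 41.9% of bases, and outside genes 28.7% of H3K27ac and 64.9% of H3K9me3 summits, against 52.4%. A listed transcription start was within 1000 bp of 13.3% of H3K27ac and 1.23% of H3K9me3 summits, against 2.05% of bases. H3K9me3 therefore stood below the share of bases at starts and inside genes.

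The median distance to the nearest gene end was 6510 bp for H3K27ac and 16786 bp for H3K9me3. Over 100 kb from any gene end were 2.36% of H3K27ac and 11.5% of H3K9me3 summits. The nearest end belonged to a pseudogene for 10.8% of H3K27ac and 33.0% of H3K9me3 summits, where pseudogenes own 23.2% of ends, and to a protein-coding gene for 59.9% of H3K27ac and 39.1% of H3K9me3 summits, where these own 48.6%. High regions made the contrast wider. With the regions of each list cut by pileup into 10 classes of like size, the share at a gene end was 12.6% in the lowest and 37.0% in the highest class of H3K27ac, and lay between 4.17% and 5.36% in all classes of H3K9me3.

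Genes were counted for a mark when a region lay within 1000 bp of either end. Of 21883 protein-coding genes 52.3% had H3K27ac and 5.87% had H3K9me3. H3K27ac only was found at 10755 (49.1%), H3K9me3 only at 605 (2.76%), both at 680 (3.11%) and neither at 9843. Of 12727 long non-coding RNA genes 31.4% had H3K27ac and 9.69% H3K9me3, and of 10429 pseudogenes 10.9% had H3K27ac and 10.8% H3K9me3. The gap between the marks thus narrowed from protein-coding genes to long non-coding RNA genes and was nearly absent at pseudogenes.

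Protein-coding genes with H3K9me3 carried H3K27ac about as often as protein-coding genes at large. Of the 1285 protein-coding genes with H3K9me3, 52.9% (50.2% to 55.6%) also had H3K27ac, against 52.3% of all protein-coding genes. At these 680 genes the highest region of one mark overlapped that of the other in 148 (21.8%). Among pseudogenes with H3K9me3, 23.3% also had H3K27ac, against 10.9% of all, and 83 of those 262 lay on input regions. After doxorubicin 90.4% of the genes with H3K27ac only, 70.4% of those with H3K9me3 only and 78.2% of those with both kept the same marks.

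The side of the gene separated the marks further. Of 14058 protein-coding genes longer than 4000 bp with a known strand, 53.4% had H3K27ac within 1000 bp of the 5′ end and 19.3% within 1000 bp of the 3′ end. H3K9me3 had the opposite order, with 2.51% at the 5′ end and 4.51% at the 3′ end. H3K27ac at the 5′ end together with H3K9me3 at the 3′ end was found at 2.53% of them.

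Zfp genes encode zinc finger proteins of the C2H2 kind and include the KRAB repressors of retroviruses. They carried each mark more often than protein-coding genes at large, though most, 222 (60.5%), had H3K27ac only. Of 367 Zfp genes 285 (77.7%) had H3K27ac and 73 (19.9%) had H3K9me3, and 63 (17.2%) had both, against 52.3% with H3K27ac, 5.87% with H3K9me3 and 3.11% with both among all protein-coding genes. The 4 highest in H3K27ac were Zfp990 at 12.8, on an input region, Zfp143 at 8.62, Zfp335 at 8.04 and Zfp229 at 7.75 FPM. In H3K9me3, Zfp991 had 13.2, Zfp992 12.6, Zfp988 5.94, Zfp640 5.69 and Zfp990 4.82 FPM, all on input regions, and Zfp872 had 5.69 outside the input list. The 73 genes with H3K9me3 rested on 72 distinct regions, of which the regions of 9 genes overlapped the input list. Chromosome 4 held 17 of the 73, and outside chromosome 4 the share was 16.5% of 340 Zfp genes.

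Over the long Zfp genes H3K27ac was more frequent at the 5′ end and H3K9me3 at the 3′ end, though few genes carried that pair. Of 297, 76.1% had H3K27ac and 6.73% H3K9me3 at the 5′ end, and 13.1% had H3K27ac and 16.5% (12.7% to 21.1%) H3K9me3 at the 3′ end. In other protein-coding genes the 3′ end carried H3K9me3 in 4.25%. H3K27ac at the 5′ end with H3K9me3 at the 3′ end was found at 42 Zfp genes (14.1%), against 2.27% of other protein-coding genes. Each mark alone was also more frequent at that end of Zfp genes, with H3K27ac at the 5′ end of 52.9% of other protein-coding genes. Whether the pair was more frequent than these single shares give was not tested. Among the 42 the H3K27ac regions of 6 and the H3K9me3 regions of 4 overlapped the input list, and 7 had at least 1 region of either mark that did. Zfp534, whose promoter is given above, had 5.13 H3K27ac and 4.13 H3K9me3 FPM, and its H3K27ac region overlapped the input list. Zfp985 had 6.01 H3K27ac and 3.44 H3K9me3 FPM, and both of its regions overlapped the input list. Zfp809, the repressor that silences murine leukaemia virus in mouse embryonic cells, had 4.21 H3K27ac at its 5′ end and 0.688 H3K9me3 at its 3′ end.

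Along the gene, H3K27ac coverage peaked 200 bp past the 5′ end, at 64.6% of Zfp genes and 37.3% of other protein-coding genes. H3K9me3 coverage of other genes was 0.756% at the 5′ end, against 3.44% at 9000 bp before it. For Zfp genes H3K9me3 coverage was highest at 10.4%, first reached 3800 bp past the 3′ end, and was 6.40% at the 3′ end itself. It was nearly as high, at 9.43%, at 10000 bp on either side of the 5′ end, and 3.37% at the 5′ end. The 10.4% is therefore no peak particular to the 3′ side.

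**Figure D3:**
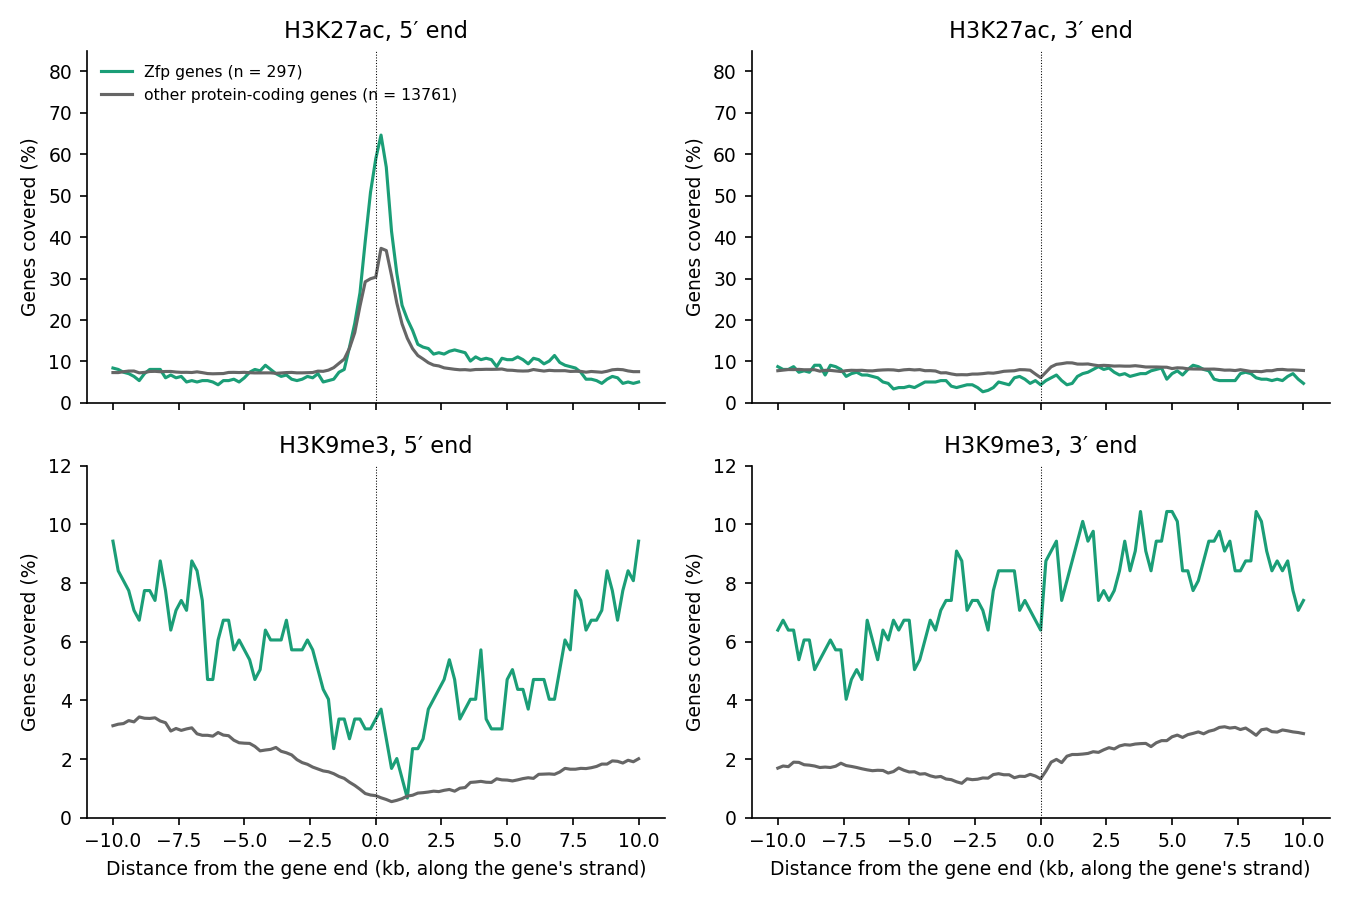
Percentage of genes longer than 4000 bp covered by H3K27ac (top) and H3K9me3 (bottom) at distances up to 10000 bp from the 5′ end (left) and the 3′ end (right), for 297 Zfp genes and 13761 other protein-coding genes; the vertical scales of the marks differ. H3K27ac peaks at 64.6% of Zfp and 37.3% of other genes just past the 5′ end. H3K9me3 coverage of Zfp genes reaches 10.4% past the 3′ end and 9.43% at 10000 bp on either side of the 5′ end.

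Most pluripotency genes carried H3K27ac at high levels. The 4 highest were Klf2 at 14.05, Nanog at 10.8, Gdf3, a growth factor gene next to Nanog and Dppa3, at 10.6 and Sox2 at 9.98 FPM. The median over the 28 acetylated genes was 4.58 FPM, and over all acetylated protein-coding genes 1.40. Lin28a at 0.484, Dppa3 at 0.630, Esrrb at 0.872, Nr0b1 at 0.920 and Dppa2 at 1.02 FPM lay below the latter. Pou5f1, which encodes Oct4, had 5.86 FPM. Dppa4 and Nr5a2 had neither mark at a gene end. Dppa3, a maternal factor that protects DNA methylation, was the single member with H3K9me3, at 2.31 FPM over 2791 bp from 122624668 to 122627458 on chromosome 6, against 0.630 for H3K27ac over 275 bp.

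Housekeeping and chromatin genes were nearly all acetylated, where 52.3% of all protein-coding genes had H3K27ac and 5.87% had H3K9me3. Of 83 ribosomal protein genes 82 had H3K27ac and 1 had H3K9me3, and the highest were Rps19 at 11.3, Rpl27a at 9.49, Rpl3 at 9.25 and Rpl12 at 8.67 FPM. The member with both was Rpl39l, a testis paralogue of Rpl39, with 0.688 H3K9me3. Of 73 histone genes 66 had H3K27ac and 2 had H3K9me3, H2bc4 at 1.06 together with H3K27ac and H1f7, a testis-specific linker histone, at 0.875 alone. The highest H3K27ac value was 12.98 at H4f16, and neighbouring H2ac19 and H3c15 shared 10.7. Other clustered histone genes shared regions too, so the 66 genes rest on fewer regions. Of 24 genes of the acetylation machinery 23 had H3K27ac and 0 had H3K9me3, led by the bromodomain gene Brd2 at 9.88, the acetyltransferase Kat7 at 6.68, Mbd3 at 4.12 and Hdac1 at 3.54. Crebbp, which encodes CBP, had neither.

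The genes of the H3K9 methylation machinery were themselves mostly acetylated. Their list also holds H3K9 demethylases and genes of DNA methylation. Of 28, 23 (82.1%) had H3K27ac, against 52.3% of all protein-coding genes, and 5 had neither mark. The highest were the HP1 gene Cbx3 at 9.25, the hemimethylated DNA reader Uhrf1 at 7.07, the demethylase Kdm3a at 6.68 and the HP1 gene Cbx5 at 6.49 FPM. H3K9me3 was found at 3 (10.7%, 3.71% to 27.2%), all with H3K27ac, against 5.87% of all protein-coding genes. Atf7ip, a Setdb1 partner, had 2.18 H3K27ac and 1.56 H3K9me3, Resf1, a retroelement silencing factor, had 3.87 H3K27ac and 0.813 H3K9me3, and Zfp809 is given above.

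Genes of the early embryo stood apart from this pattern. Of 29 genes of the 2-cell state, which mark the rare cells in culture that resemble the embryo after its first division, 1 had H3K27ac, Zfp750 at 2.66 FPM, and 8 (27.6%, 14.7% to 45.7%) had H3K9me3, against 52.3% with H3K27ac and 5.87% with H3K9me3 among all protein-coding genes. Tcstv3 had 165.1 H3K9me3 FPM over 4484 bp up to position 120321657, the last position of chromosome 13 in any list or in the gene table, and did not overlap an input region. The others lay between 0.563 at Tdpoz2 and 1.25 at Tdpoz4, with Tdpoz3, Sp110 and Zfp352 each at 1.00. Except for Tcstv3 these values were close to the median of the H3K9me3 list. Zscan4b, at 0.938, was the single Zscan4 member counted. Zscan4c, Zscan4d and Zscan4f had neither mark at a gene end, although their 1 Mb window held 124 H3K9me3 regions. These families are tandem copies, and reads from near-identical copies could be assigned to any of them.

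Imprinted and germ-line genes carried H3K9me3 at shares near that of all protein-coding genes, which was 5.87% beside 52.3% with H3K27ac. Of 39 imprinted genes 30 (76.9%) had H3K27ac and 3 (7.69%) had H3K9me3. Peg3 and Usp29 shared the highest H3K27ac value of 4.89, followed by Ube3a at 4.65 and Blcap at 4.26 FPM. Igf2r, which encodes a receptor that clears IGF2, had 0.726 H3K27ac and 1.13 H3K9me3 in neighbouring regions beyond its 5′ end. Commd1 had 0.581 H3K27ac and 1.44 H3K9me3 at opposite ends, and Igf2 had no H3K27ac and 0.875 H3K9me3. Of 30 germ-line genes 16 (53.3%) had H3K27ac, led by Rpl10l at 3.05, Tex19.1 at 2.95, Rnf17 at 2.81 and Tuba3a at 1.60, and 2 (6.67%) had H3K9me3. Brdt, a testis bromodomain gene, had 0.630 H3K27ac and 0.688 H3K9me3, and Tdrd9, a piRNA pathway helicase, had 0.750 H3K9me3 alone.

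Tissue-specific gene families in clusters mostly carried neither mark. Of 1106 olfactory receptor genes 18 (1.63%) had H3K27ac and 24 (2.17%) had H3K9me3, and of 353 vomeronasal receptor genes 7 (1.98%) had H3K27ac and 21 (5.95%) had H3K9me3, against 52.3% with H3K27ac and 5.87% with H3K9me3 among all protein-coding genes. The highest H3K9me3 values were 23.1 FPM at Vmn2r29, on an input region, 3.81 at Olfr784 and 3.69 at Vmn1r48, also on an input region. Of 42 beta-defensin genes 2 (4.76%) had H3K27ac and 4 (9.52%) had H3K9me3, of 46 Pramel and Pramef genes 5 (10.9%) had H3K27ac and 4 (8.70%) had H3K9me3, and of 49 keratin genes 14 (28.6%) had H3K27ac and 4 (8.16%) had H3K9me3. All 31 Rhox genes, a homeobox cluster on the X chromosome, had neither. Of 39 Hox genes 19 had H3K27ac, with Hoxc12 and Hoxc13 sharing 3.73 and Hoxc11 at 1.02 FPM, and 1 had H3K9me3, Hoxd12 at 0.875.

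**Figure D4:**
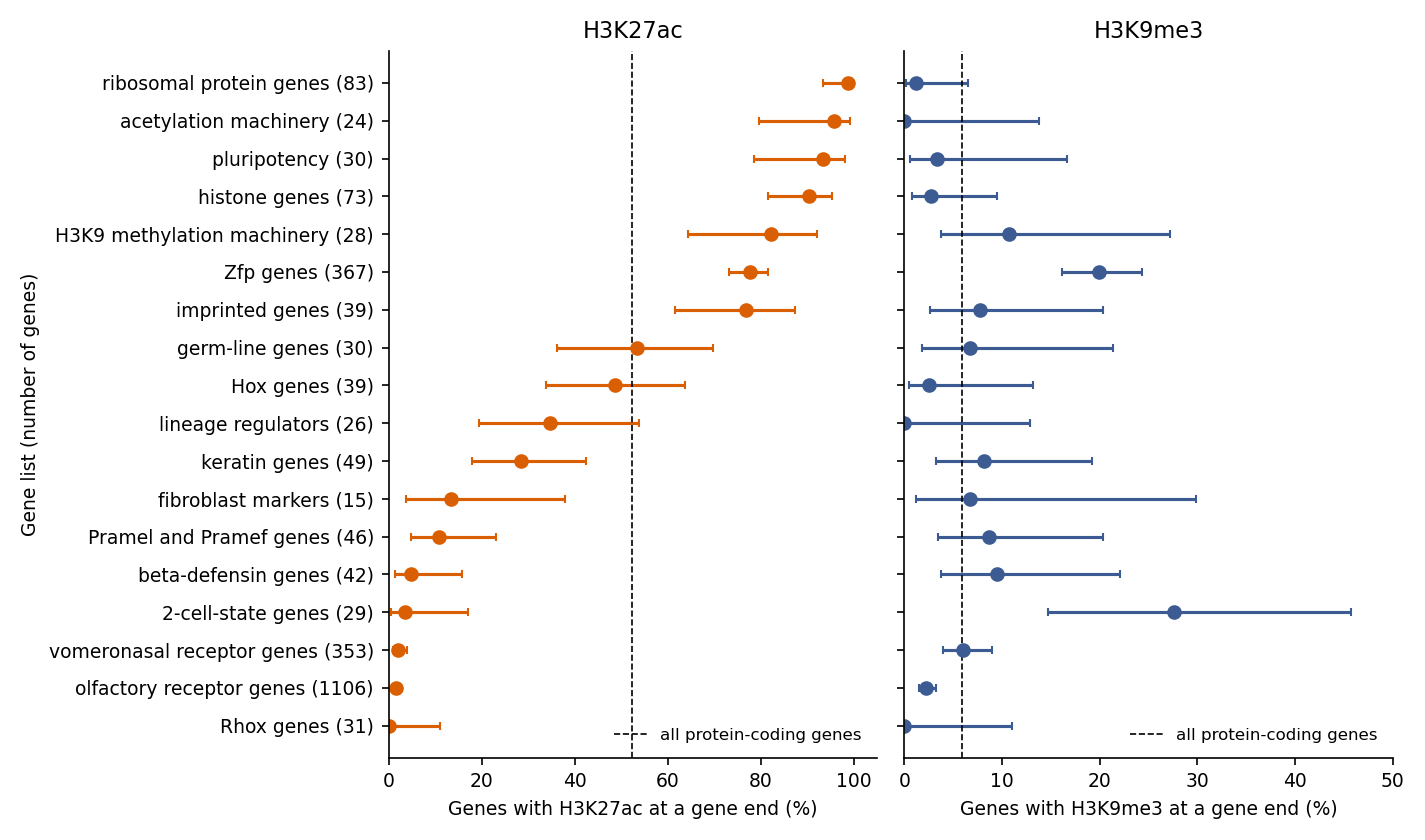
Percentage of the genes of each list with H3K27ac (left) and H3K9me3 (right) within 1000 bp of a gene end, with 95% Wilson intervals and the number of genes in brackets; dashed lines are all protein-coding genes, 52.3% for H3K27ac and 5.87% for H3K9me3. Ribosomal protein, acetylation and pluripotency genes are highest in H3K27ac, and 2-cell-state and Zfp genes are highest in H3K9me3; the horizontal scales differ.

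Among single protein-coding genes outside the input list, H3K27ac was highest at Sirt4, with 17.1 FPM. Dido1 and Gid8, which encodes a ubiquitin ligase subunit, lie head to head and shared 1 region at 14.5, and Klf2 and Eps15l1 shared 1 region of 20199 bp at 14.05. Cd9 had 13.6, the actin gene Actb 13.3, H4f16 12.98, the transcription factor gene Sp1 12.8 and the oxidative stress regulator Nfe2l2 12.4. Outside the input list H3K9me3 was highest at Tcstv3. Ltn1, a ribosome quality control ligase, followed at 7.88 at its 3′ end with 1.36 H3K27ac, then Gm52416 at 7.82, Asmt, the last enzyme of melatonin synthesis, at 6.63, Cyp3a41a at 6.50, Cdk15 at 6.38 and Thegl at 5.88. On input regions H3K27ac reached 101.4 at Wls, 26.7 at 4930467E23Rik, 17.4 at 9030025P20Rik and 15.7 at Gm3435, and H3K9me3 reached 320.4 at Wls, 66.3 at Mid1, 33.8 at Gm52481 and 21.4 at Gm40469. Gm42346 at 17.4 and Lars2 at 11.7 H3K9me3 FPM also lay on input regions. The order of the top genes in H3K9me3 thus depended on whether these regions were kept.

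In the promoter windows of protein-coding genes the marks differed in CG content. The 21262 windows belong to 17491 protein-coding genes, so some genes count more than once. Of the windows 39% had H3K27ac and 1.08% had H3K9me3. The median number of CG dinucleotides was 20 in the 8232 windows with H3K27ac only, 5 in the 174 with H3K9me3 only, 7 in the 56 with both and 6 in the 12800 with neither, against 13 in all. With 4 or fewer CG, 8.53% (7.85% to 9.27%) of windows had H3K27ac and 1.71% (1.41% to 2.07%) H3K9me3. With 20 to 29 CG the values were 62.7% (61.3% to 64.2%) for H3K27ac and 0.436% (0.279% to 0.680%) for H3K9me3, and with 30 or more 50.7% for H3K27ac and 0.152% for H3K9me3. H3K27ac thus became more frequent up to the class of 20 to 29, while H3K9me3 at these protein-coding genes became rarer above 9. At long non-coding RNA genes the order was another. Their windows had H3K27ac in 9.49% with 4 or fewer CG, 34.7% with 10 to 19 and 66.0% with 20 to 29. H3K9me3 lay on 2.48% of them with 4 or fewer, 3.30% with 5 to 9, 4.94% (3.83% to 6.35%) with 10 to 19, 0.395% with 20 to 29 and 0.722% with 30 or more. CG reads the same on both strands, and its count in a window describes the sequence only.

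**Figure D5:**
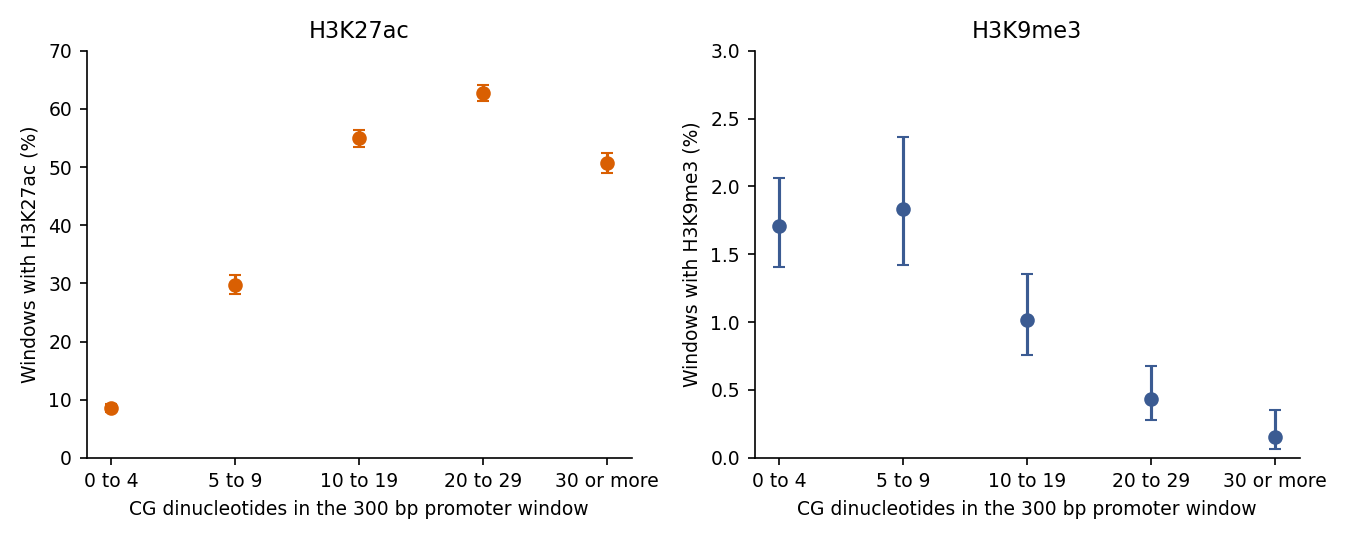
Percentage of 300 bp promoter windows of protein-coding genes with H3K27ac (left) and H3K9me3 (right) by the number of CG dinucleotides in the window, with 95% Wilson intervals; the vertical scales differ. H3K27ac is at 8.53% in the lowest class and 62.7% at 20 to 29, and H3K9me3 is at 1.71% in the lowest class and 0.152% at 30 or more.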

How the data were processed

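Chromatin from vehicle-treated E14 cells was immunoprecipitated for H3K27ac or H3K9me3 and sequenced, 2 libraries each. Bowtie2 2.2.6 and MACS2 2.2.5 and the build mm10 are named in the submitters' processing notes. Per the file headers, the pooled paired-end libraries were called with no control and no local background, 1 copy of a duplicate fragment was kept and the q threshold was 0.05. The deposited signal is the fragment pileup over each summit, the deposited fold enrichment is its ratio to the background, the deposited q values are −log10, and the deposited lengths are in bp.

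Summits of 1 interval were joined into 1 region with the values of its highest summit, and pileup was divided by the fragments after filtering in the header. Overlap needed 1 bp. Genes and promoter windows came from RefSeq tables of GRCm38.p6 (45039 genes), and strand was known only for genes with a promoter entry. No genome came with the data, so a chromosome ends at its last annotated gene or region. Named genes were the 10 of highest pileup per mark, those of the 5 longest regions and 5 richest windows, and in each list the 4 highest of its main mark and up to 6 with the other. The sequences shown from Sox2, Nanog, Zfp534 and Zfp985, and of the genes with H3K9me3 over the window, were chosen after their values were seen. The members and the 18 gene lists were chosen with earlier results of these data known.

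With 1 pooled list per mark no test was run and no p-value is given. Python 3.11.15, numpy 2.4.6, pandas 2.3.3, scipy 1.17.1 and matplotlib 3.10.9 were used, and overlap and distance counts were checked on 8996 simulated regions against bedtools 2.31.1, with 0 differing. Depth limits weak regions, since a region had to reach 9 fragments for H3K27ac and 8 for H3K9me3. Alternatives covered stricter thresholds, equal list lengths, merging, input regions, chromosomes, gene windows and window sizes. The HA lists were not used here. 1 gene that the naming rule picks is not reported here.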

Additional observations from a re-analysis of the deposited data

Results flagged for a closer look

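Outside the reference chromosomes, the genome used by the authors held an added contig of unstated origin, and both marks had regions on it while the input list had 0. The H3K27ac list held 149 regions there, covering 139083 bp, with a median pileup of 0.678 and a highest of 6.05 FPM (fragments per 1000000 fragments of the list). The H3K9me3 list held 58 regions there, covering 63779 bp, with a median of 0.844 and a highest of 2.88 FPM. These medians lay below those of the whole lists, 0.726 for H3K27ac and 0.938 for H3K9me3.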

How the results depend on the processing

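Of 98 values under 15 alternatives, 43 stayed within the counting interval of the value given (counts of genes within 1.5 times) and 55 moved beyond it; with lists this long the intervals are narrow. The share of summits at a gene end and the number of genes with 1 mark only were higher for H3K27ac under every alternative run for them. At a −log10 q of at least 5, H3K27ac had a median length of 1036 bp, a median pileup of 1.07 FPM and 24.8% of summits at a gene end, H3K9me3 had 939 bp, 1.19 FPM and 4.43%, 10.1% of H3K9me3 regions overlapped H3K27ac and 425 genes had both. At a fold enrichment of at least 4, H3K27ac had 958 bp, 1.02 FPM, 23.8% at gene ends and 9.25% overlapping, H3K9me3 had 857 bp, 1.13 FPM, 4.47% and 10.4%, and 54.9% of windows had more H3K9me3. At a pileup of at least 1 FPM, H3K27ac had 1461 bp, 1.55 FPM, 30.1% at gene ends and 8.63% overlapping, H3K9me3 had 1207 bp, 1.44 FPM, 4.40% and 7.79%, 291 genes had both and 58.9% of windows had more H3K9me3. With equal numbers of top regions, H3K27ac had 815 bp, 0.872 FPM, 22.0% at gene ends and 10.4% overlapping, 10.7% of H3K9me3 regions overlapped and 58.8% of windows had more H3K9me3. Merging within 1000 bp gave H3K27ac 810 bp and 10.9% overlapping, and H3K9me3 843 bp and 14.1%. The lowest summit of a region gave 0.630 FPM for H3K27ac and 0.813 for H3K9me3. Requiring 50% of a region to be covered gave 6.33% for H3K27ac and 8.14% for H3K9me3. Leaving out input regions gave 7.76% for H3K27ac and 10.6% for H3K9me3, and 4.47% of H3K9me3 summits at gene ends. Autosomes alone gave 8.69% of H3K27ac regions overlapping and 50.4% of windows with more H3K9me3, 2 Mb windows gave 49.3% and covered bases 57.4%. A gene window of 500 bp gave 13.3% of H3K27ac and 2.46% of H3K9me3 summits at gene ends and 430 genes with both. One of 2500 bp gave 31.0% for H3K27ac and 10.8% for H3K9me3, 1005 genes with H3K9me3 only and 1395 with both. The order of the medians changed with the threshold, for length at the 3 stricter thresholds and with equal numbers, and for pileup at 1 FPM. Windows without an input region, an alternative chosen after seeing the data, gave 53.2%. No paired analysis was possible because the 2 libraries of a mark were merged before calling. For lack of single-library lists, no replicate could be left out.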
